A study of Mus musculus with 8 samples.

Results

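Binding of Ezh2 was set against the mark that it writes, H3K27me3, in EML_C1 cells. Peaks of the 2 replicates of an antibody were merged, and a merged region was kept where both replicates contributed to it with an overlap of at least 1 bp. This left 65288 Ezh2 regions and 110636 H3K27me3 regions, which together are 175924 of the 219951 regions given by the 3 antibodies of the study, from 4 of its 8 samples. EML_C1 is a mouse haematopoietic progenitor line of the C57BL/6 strain. All samples were grown with stem cell factor at 200 ng/ml, and the labels name no other treatment and no genetic change. Chromatin for Ezh2 was fixed with the protein crosslinker DSG at 2 mM and with 1% formaldehyde, each for 60 min, and had an input library that it shared with Runx1, the third antibody. Chromatin for H3K27me3 was fixed with 1% formaldehyde for 10 min and had its own input. Ezh2 was deposited as narrow peaks and H3K27me3 as broad peaks, so antibody, fixation, input and kind of peak cannot be told apart wherever the protein and the mark differ. The labels do not say that replicates came from separate cultures, and a spread between them may be technical. With 2 replicates per antibody an exact permutation test cannot give a two-sided p below 0.333, so no test was run and values are given per replicate. Peak lists hold no expression values, so the identity of the cells could not be checked against marker genes.

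Ezh2 is the catalytic subunit of Polycomb repressive complex 2 (PRC2), which trimethylates histone H3 on a lysine of its tail. Another PRC2 subunit, Eed, binds the finished mark and stimulates the enzyme, a feedback by which the mark is thought to spread away from the sites where the complex first binds. In mammals these sites are often CG-rich gene starts. A second complex, PRC1, reads the mark through its Cbx subunits. In blood progenitors the pathway is known for holding developmental genes and genes of other lineages silent.

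Genes were sorted by the regions within 1 kb of either end of the gene: both where Ezh2 and the mark lay at the same end, Ezh2 alone, mark alone, or neither. The promoters of 2 genes of each of the first classes are shown, since their content of CG dinucleotides differed between the classes. They were taken by rank of the fold enrichment that the authors' peak caller gave, among genes whose window was itself touched by the regions of its class, leaving out genes with fewer than 150 such bases outside the annotated gene. Each sequence is the part before the gene of the 250 bases upstream of a RefSeq start on GRCm38.p6, whose coordinates are those of mm10, read 5′ to 3′ on the strand of the gene, with every CG in capitals. CG reads the same on both strands, and 6.61% of all 21263 such windows of 250 bases held none. Itsn1 (chr16:91729121-91729309, plus strand) and Ptpru (chr4:131838307-131838528, minus strand) had both. The class is that of the gene and its whole window, not of every printed base. The marked region of Itsn1 begins at chr16:91729361, after its printed stretch. Camk2n2 (chr16:20621279-20621528, minus strand) and Gm527 (chr12:64917661-64917910, plus strand) had Ezh2 alone. Krtap9-3 (chr11:99598107-99598356, minus strand) and Gm11938 (chr11:99603309-99603558, minus strand) had the mark alone. The marked region of Krtap9-3 ends at chr11:99598112, so it covers only the last few bases of that stretch.
Itsn1: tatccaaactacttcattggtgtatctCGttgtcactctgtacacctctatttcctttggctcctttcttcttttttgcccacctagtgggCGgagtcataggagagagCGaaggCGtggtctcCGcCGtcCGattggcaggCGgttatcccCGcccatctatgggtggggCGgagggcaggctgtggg
Ptpru: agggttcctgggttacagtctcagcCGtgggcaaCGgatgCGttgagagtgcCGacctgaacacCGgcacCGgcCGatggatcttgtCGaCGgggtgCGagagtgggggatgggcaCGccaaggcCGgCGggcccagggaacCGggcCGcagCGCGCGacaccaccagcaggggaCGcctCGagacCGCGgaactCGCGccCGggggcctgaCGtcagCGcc
Camk2n2: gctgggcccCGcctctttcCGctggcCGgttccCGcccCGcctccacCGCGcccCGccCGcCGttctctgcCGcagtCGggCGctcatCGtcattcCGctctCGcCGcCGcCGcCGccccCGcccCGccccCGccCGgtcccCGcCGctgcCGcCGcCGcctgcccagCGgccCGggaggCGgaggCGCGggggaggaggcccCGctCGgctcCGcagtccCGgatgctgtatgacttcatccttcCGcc
Gm527: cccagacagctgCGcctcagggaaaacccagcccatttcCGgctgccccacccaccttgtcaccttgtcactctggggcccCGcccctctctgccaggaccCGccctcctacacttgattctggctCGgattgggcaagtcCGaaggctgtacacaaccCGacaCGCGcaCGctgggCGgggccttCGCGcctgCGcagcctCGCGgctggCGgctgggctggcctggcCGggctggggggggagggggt
Krtap9-3: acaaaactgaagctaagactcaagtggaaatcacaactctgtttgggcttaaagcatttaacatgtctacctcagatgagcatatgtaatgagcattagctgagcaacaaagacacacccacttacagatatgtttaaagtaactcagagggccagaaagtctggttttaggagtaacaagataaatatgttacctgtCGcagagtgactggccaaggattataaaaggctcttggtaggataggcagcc
Gm11938: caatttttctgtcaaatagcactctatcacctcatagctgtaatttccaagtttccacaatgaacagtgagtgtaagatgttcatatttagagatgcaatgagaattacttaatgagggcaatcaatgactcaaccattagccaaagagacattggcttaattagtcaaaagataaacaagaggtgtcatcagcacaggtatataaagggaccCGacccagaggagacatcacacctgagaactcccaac
The stretches printed for Itsn1 and Ptpru held 10 CG in 189 bases and 27 CG in 222 bases. Those of Camk2n2 and Gm527 held 39 and 18 in 250 bases, and those of Krtap9-3 and Gm11938 held 1 each.

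The deposited lists were long and mostly weak. Ezh2 had 178354 and 159007 peaks in replicates 1 and 2, of which 39.7% and 45.0% lay in a shared region, and 20.2% and 14.1% had a q of at most 0.01. H3K27me3 had 220455 and 178423 peaks, of which 53.2% and 82.5% lay in a shared region, and 6.13% and 1.34% had such a q. Its replicate 1 covered 348.5 Mb and its replicate 2 covered 203.1 Mb. The depth is unknown, as no source used here gives read totals.

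In the lists as deposited, most Ezh2 regions lay in marked chromatin, while most marked regions held no Ezh2 region. An H3K27me3 region was touched by 58784 Ezh2 regions (90.0%), and 6504 lay apart from the mark, called Ezh2-only below. An Ezh2 region was found in 27873 marked regions (25.2%), and 82763 were mark-only. By bases, 89.5% of the Ezh2 regions lay in the mark, which covered 11.5% of the 2661.3 Mb spanned by the lists, and 11.4% of the mark lay under Ezh2. Of the Ezh2 regions that touched the mark, 49540 (84.3%) lay wholly inside it. The share in the mark depended on which lists were made stricter. With a q of at most 0.01 in the Ezh2 lists only, 95.1% of Ezh2 regions lay in the mark. It turned to a minority where the mark lists were cut as well. With that q in all 4 lists, which left 1573 marked regions, the share was 15.3%. The 10000 strongest peaks of each list gave 43.9%. The shares also moved with the library. When the list of Ezh2 replicate 2 or replicate 1 stood in for the shared regions, 43.2% or 48.2% of marked regions were touched, and 25.2% or 22.4% of Ezh2 peaks were Ezh2-only in place of 9.96%. When the list of H3K27me3 replicate 2 stood in for the shared mark, 19.1% of its peaks were touched and 82.0% of the Ezh2 regions lay in the mark, and with replicate 1 these values were 14.4% and 93.8%.

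Ezh2 regions in the mark were wider and slightly stronger than those outside. Their median width was 484 bp, against 376 bp for Ezh2-only. In replicate 1 the median fold enrichment of Ezh2 peaks was 2.66 in the mark and 2.50 outside, and in replicate 2 it was 2.58 and 2.37. The log2 difference was 0.09 and 0.13. Among the tenth of Ezh2 regions with the lowest mean fold 87.0% touched the mark, and among the tenth with the highest 96.2% did. By width the share went from 81.2% of the 8066 regions of up to 300 bp to 99.7% of the 1193 regions of 2000 to 5000 bp. A wide region also has more bases with which to touch the mark, and the part of this in the trend was not tested.

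The width of a marked region went with how much Ezh2 it held. An Ezh2 region was found in 7.75% of the 32116 marked regions of up to 1 kb, in 13.9% of those of 1 to 2 kb, in 32.0% of those of 2 to 5 kb, in 65.7% of those of 5 to 10 kb, in 92.0% of those of 10 to 20 kb and in 99.5% of the 811 above 20 kb. A wider region would be touched more often even at an even density, so middles of Ezh2 regions were also counted per length. The density was 1.17 per 10 kb of mark in regions of up to 1 kb, 1.01 in those of 1 to 2 kb, 2.09 in those of 5 to 10 kb and 3.68 in those above 20 kb. Single lists gave the same order of the end classes, with 3.52 peaks per 10 kb in the narrowest and 7.22 in the widest regions for Ezh2 replicate 1, and 2.79 and 6.04 for replicate 2. In all 3 measures the class of 1 to 2 kb was the lowest. Within each width class the mark itself had a higher median fold where Ezh2 was present, in both replicates. Only 272 marked regions of 10 to 20 kb and 4 above 20 kb were without Ezh2. The fold of a region is that of its strongest peak, and the part of width within a class was not tested. In regions of 2 to 5 kb the H3K27me3 fold was 2.30 with Ezh2 and 2.14 without in replicate 1, and 2.21 and 2.11 in replicate 2.

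**Figure D1:**
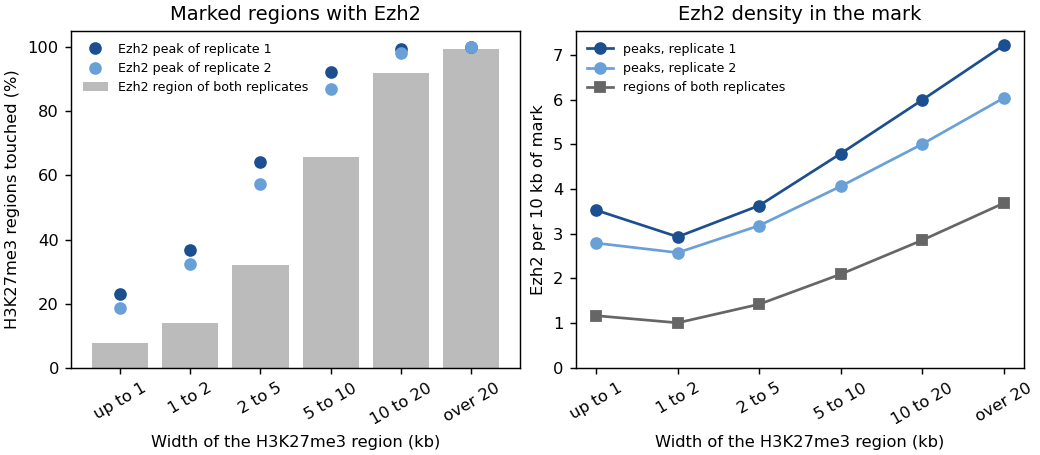
H3K27me3 regions by width in kb. Left, the percent touched by an Ezh2 region of both replicates (bars) or by an Ezh2 peak of 1 replicate (points). Right, middles of Ezh2 regions or peaks per 10 kb of mark, which are lowest at 1 to 2 kb and highest above 20 kb, where regions of both replicates reach 3.68.

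Counted by number, a small part of the marked regions held much of the Ezh2. Of the 27873 marked regions with Ezh2, 16487 held 1 Ezh2 region, 5306 held 2, 4311 held 3 to 5, 1378 held 6 to 10, 334 held 11 to 20 and 57 held 21 or more. The share with at least 2 was 40.9%. The 5308 marked regions with the most Ezh2, 4.80% of all, held 50% of the contacts. Marked regions with more Ezh2 were also wider, and the share of marked bases in these 5308 was not computed. Median width went along these classes from 1350 bp with none to 46638 bp with 21 or more, and the median H3K27me3 fold from 2.11 to 2.68 in replicate 1 and from 2.08 to 2.54 in replicate 2.

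The most Ezh2 regions in 1 marked region, 47, lay in 65360 bp over Cacna2d2, a calcium channel subunit gene (chr9:107392380-107457739). They had a median spacing of 1078 bp, and Ezh2 regions covered 48.7% of its bases. This stretch was 1 broad H3K27me3 peak in replicate 1 and 10 in replicate 2, and it held 67 and 61 Ezh2 peaks. Plekha6 followed with 41 Ezh2 regions in 85216 bp (chr1:133207466-133292681), and Elfn2 with 40 in 96502 bp (chr15:78623920-78720421), the widest marked region. Itsn1, an endocytic scaffold gene, carried 2 such stretches, with 39 Ezh2 regions in 76329 bp (chr16:91826632-91902960) and 33 in 43513 bp (chr16:91729361-91772873). The second begins just after the stretch printed above and holds the highest Ezh2 fold of these stretches, 29.5 as the mean of replicates. The signalling adaptor gene Dab2ip had 38. The marked region over Hoxb3 to Hoxb9 held 32 Ezh2 regions in 80380 bp (chr11:96241610-96321989), which covered 85.0% of it.

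The widest mark-only region spanned 29092 bp over Eppk1 and BC024139 (chr15:76113827-76142918). It was 1 H3K27me3 peak in replicate 1 and 5 in replicate 2, with folds of 2.21 and 2.09. It touched 9 Ezh2 peaks of replicate 1 and 4 of replicate 2, none of which met to form a shared region. Each of the 10 widest mark-only regions touched Ezh2 peaks of both lists in this way, among them regions over Atp2b2, Cdh23, Kcnt1 and the hypoxia regulator gene Epas1. Nearly all marked regions of such width did so. Of all those of 10 to 20 kb, 99.6% touched a peak of Ezh2 replicate 1 and 98.4% one of replicate 2. Above 20 kb both shares were 100%.

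**Figure D2:**
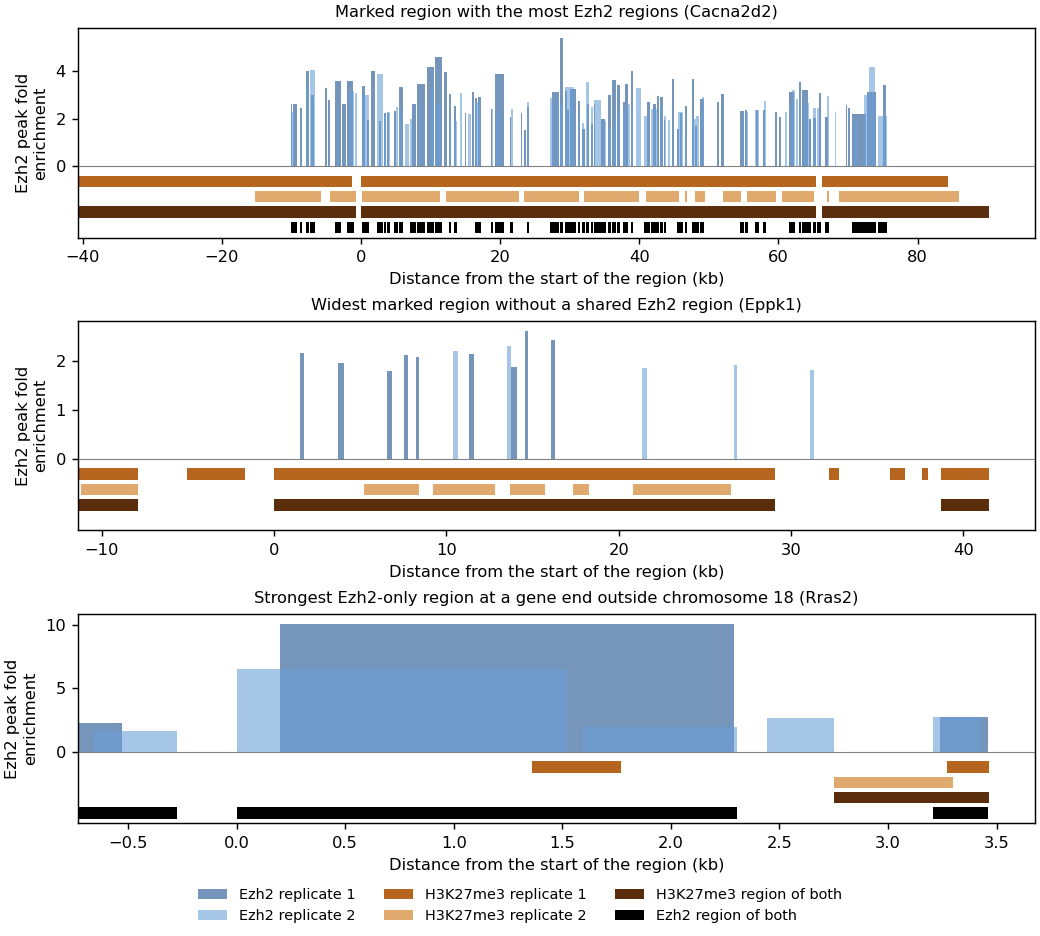
Ezh2 peaks as bars, with height their fold enrichment and width to scale, over the H3K27me3 peaks and the regions of both replicates, by distance in kb from the start of the region. The top panel is the marked region over Cacna2d2 with 47 Ezh2 regions, the middle panel the mark-only region over Eppk1 and the bottom panel the Ezh2-only region at Rras2.

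Within the mark, Ezh2 regions were spread broadly, with somewhat fewer near the edges over all widths together but not in marked regions of 1 to 5 kb. Position was measured as the distance of the middle of an Ezh2 region from the nearer edge over the width of the marked region, which runs from 0 at the edge and has a median of 0.25 for an even spread. The median over 57521 Ezh2 regions was 0.262. An even spread puts 20.0% of them in the outermost 20.0% of the width, counted from both edges, and as many in the innermost 20.0%, and the lists held 18.03% and 21.2% there. In marked regions of 2 to 5 kb these were 22.3% and 20.2%, with a median position of 0.251. At 1 to 2 kb they were 18.8% and 17.9%, with a median of 0.216. Every other width class held fewer in the outermost than in the innermost part. In the 4221 marked regions above 10 kb the density was 2.45 Ezh2 regions per 10 kb in the outermost 500 bp, 2.22 in the next 500 bp, 2.96 at 2000 to 3000 bp and 3.56 beyond 5000 bp. Peaks of Ezh2 replicate 1 gave 5.50 in the outermost 500 bp and 7.04 beyond 5000 bp, and those of replicate 2 gave 4.57 and 5.93. All 4221 regions contribute equally to each of the bins up to 5000 bp, over which the density went from 2.22 to 3.34, while wider regions contribute more of the length beyond. Where the list of H3K27me3 replicate 2 stood in for the shared mark, the median position was 0.243, on the other side of the even value, and with the other libraries left out it was at most 0.255.

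**Figure D3:**
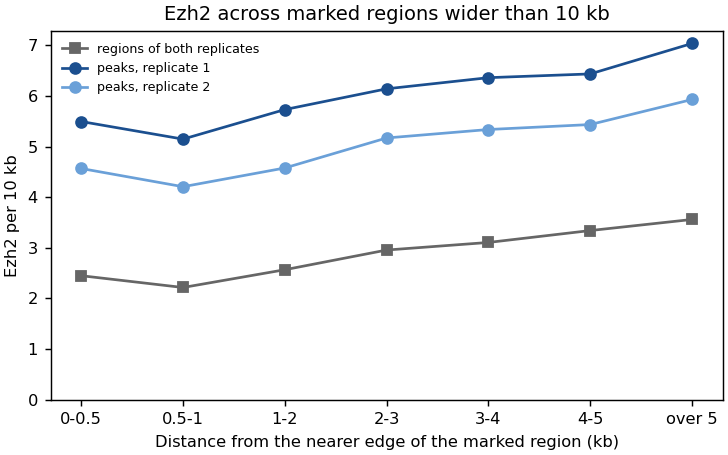
Ezh2 regions or peaks per 10 kb against the distance in kb from the nearer edge of the 4221 marked regions above 10 kb. All 3 lines are lowest at 0.5 to 1 kb from the edge and highest beyond 5 kb.

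The strongest Ezh2 region of a marked region was not far above its neighbours. In the 2440 marked regions with at least 5 Ezh2 regions, the fold of the strongest was 1.32 times the median of its region, and it exceeded 2 times in 225. The median position of the strongest was 0.281, against 0.266 for all Ezh2 regions of these marked regions.

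Neighbouring Ezh2 regions of the same marked region lay a median of 1406 bp apart, measured between middles over 30329 pairs, with quartiles of 924 and 2295 bp. The median was 1105 bp in marked regions of 2 to 5 kb and 1542 bp in those above 20 kb. A distance cannot exceed the width of its marked region, which cuts the narrower class short, and only marked regions with at least 2 Ezh2 regions enter. Per length the narrower class held less Ezh2, 1.42 middles per 10 kb against 3.68. Peaks of single lists were closer, with a median of 982 bp in replicate 1 and 1004 bp in replicate 2. Few pairs were under 500 bp apart, as the histogram of spacing shows, and regions that overlap had been merged, which sets a lower limit near the width of a region. Over all Ezh2 regions, the nearest neighbour lay 1552 bp away for those in the mark and 6369 bp away for Ezh2-only. With only peaks of q of at most 0.01 in the Ezh2 lists the spacing in a marked region was 2344 bp.

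**Figure D4:**
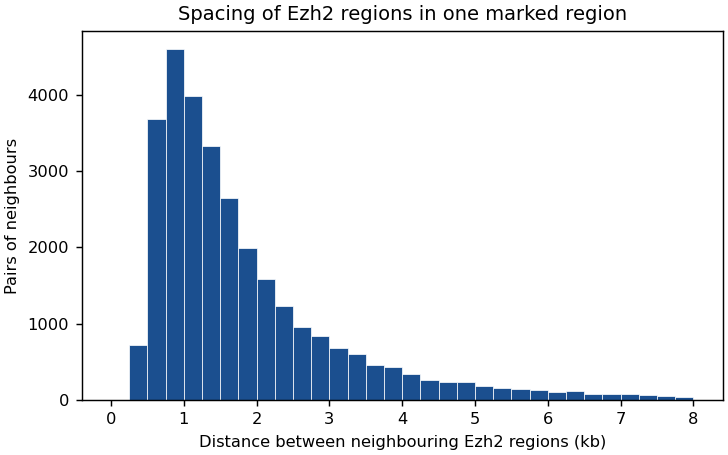
Number of pairs of neighbouring Ezh2 regions in the same marked region against the distance between their middles, in bins of 250 bp. Counts are highest between 0.75 and 1 kb, and the 350 pairs that lay 8 kb or more apart are not drawn.

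The median distance of Ezh2-only regions to the nearest marked region was 1655 bp, with 34.1% within 1 kb and 76.8% within 5 kb. Marked regions are many, and the share of the unmarked span within these distances was not computed. Whether Ezh2-only regions lay closer than other unmarked sequence is therefore not known. Many Ezh2-only regions touched mark that 1 replicate alone had given. An H3K27me3 peak of replicate 1 only was touched by 3079 and of replicate 2 only by 471. Peaks of each without a shared region were touched by 34, and 2920 (44.9%) touched none. The 2920 without any mark peak had a median Ezh2 fold of 2.45 and 2.37 in replicates 1 and 2, and 10.0% had their middle at a gene end, against 5.72% of the other 3584. The median distance of mark-only regions to the nearest Ezh2 region was 13090 bp. Ezh2 regions covered 1.47% of the span and marked regions 11.5%, so the distances of these classes are to unlike targets and do not compare. Of the mark-only regions, 45155 (54.6%) touched no Ezh2 peak of either list.

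The strongest Ezh2-only regions were of several kinds. The region with the highest fold lay on chromosome 18 (chr18:85697932-85698284), 204464 bp from the mark and 696531 bp from the nearest protein-coding gene, was 353 bp wide and had folds of 19.1 and 12.5. A narrow region of 344 bp on chromosome 8 (chr8:3754379-3754722) had folds of 8.96 and 5.99. By contrast, the region at Rras2, a Ras-related GTPase gene, was 2305 bp wide (chr7:114115717-114118021), had folds of 10.1 and 6.50, lay 445 bp from the mark and touched an H3K27me3 peak of replicate 1. The region at Nr6a1, an orphan nuclear receptor gene, was 1884 bp wide (chr2:38822745-38824628), with folds of 6.47 and 8.60, and lay 6595 bp from the mark. The region at Camk2n2, which encodes an inhibitor of a calmodulin-dependent kinase, was 2114 bp wide (chr16:20619663-20621776), had folds of 8.41 and 6.26 and lay 7980 bp from the mark. Of the 10 Ezh2-only regions with the highest fold, 4 touched a protein-coding gene. The regions on chromosome 18, at Rras2 and at Camk2n2 touched a Runx1 region, and those on chromosome 8 and at Nr6a1 did not. Of all Ezh2-only regions 7.70% touched one. Runx1 shared fixation and input with Ezh2, and the part of these was not tested.

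Ezh2 regions of either kind lay at gene starts more often than the share of the genome there. Windows within 1 kb of a start made up 1.40% of the span, and held the middles of 3.99% of Ezh2 regions in the mark and 5.90% of Ezh2-only regions. For marked regions the shares were 3.96% with Ezh2 and 1.98% without. At far ends, which made up 1.26% of the span, the shares were lower and closer together, at 1.79%, 1.22%, 1.46% and 1.23% in the same order. The strand was known for 17492 of the 21887 protein-coding genes. Ezh2 regions at a start were wider than elsewhere, with a median of 767 against 478 bp in the mark and 555 against 372 bp outside it. In the mark their fold at a start was 3.14 and 2.75 in replicates 1 and 2, against 2.68 and 2.58 elsewhere. For Ezh2-only the replicates differed in direction, with 2.59 at a start against 2.50 elsewhere in replicate 1 and 2.27 against 2.42 in replicate 2. Windows at either end of all genes made up 2.98% of the span, and 6.62% of Ezh2 regions in the mark and 7.64% of Ezh2-only regions were at a gene end. This order did not hold in single lists: with Ezh2 replicate 2 alone the shares were 5.29% and 3.22%, the second near that of the span, and with replicate 1 alone 5.66% and 4.52%. Most Ezh2 regions lay elsewhere, with 45.6% of those in the mark in gene bodies, against 37.1% of the span, and 47.8% outside genes, against 59.9%.

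Of the 21887 genes, 3258 (14.9%) had Ezh2 and the mark at the same end, 366 (1.67%) had Ezh2 alone, 3659 (16.7%) had the mark alone, 54 (0.247%) had them at different ends and 14550 (66.5%) had neither. The count with Ezh2 alone was 697 with Ezh2 replicate 2 as the Ezh2 list, 1068 with replicate 1, and 210 with H3K27me3 replicate 1 as the mark. The count with the mark alone was 2059 with Ezh2 replicate 1. With a q of at most 0.01 in all 4 lists the order of the classes turned, with 540 genes with both, 1154 with Ezh2 alone and 231 with the mark alone. Of the 366 genes with Ezh2 alone, 197 had no H3K27me3 peak of either list at an end, 143 had one of replicate 1 only, 7 of replicate 2 only and 19 had unshared peaks of both. Of the 3659 with the mark alone, 1583 had no Ezh2 peak of either list. Among stranded genes the region lay at the start in 91.5% of 295 genes with Ezh2 alone and in 80.0% of 2515 with both. With Ezh2 replicate 2 alone these were 77.8% and 77.9%, and with replicate 1 alone 83.2% and 81.0%. With a q of at most 0.01 in the Ezh2 lists only they were 94.7% and 88.6%. With that q in all 4 lists they were 86.4% and 95.4%, so the order of the classes depended on the peaks admitted.

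Among genes with both, Bmi1 had the highest Ezh2 fold, 77.4 in replicate 1 and 90.4 in replicate 2. Bmi1 encodes a core subunit of PRC1 (chr2:18677018-18686629). Its Ezh2 region was 1834 bp wide, while the mark there was 852 bp wide with modest folds of 3.33 and 2.39. The same region reaches the end of the neighbouring gene Commd3, which counts as Ezh2 alone because the mark stops short of its window; in 20 of the 366 genes with Ezh2 alone the strongest region reached the mark in this way. Itsn1 and its neighbour Cryzl1 shared a region with Ezh2 folds of 35.3 and 23.7, next to mark of 3.40 and 3.59. Ptpru, a receptor tyrosine phosphatase gene, had Ezh2 folds of 31.2 and 23.9 and Tyro3, a receptor tyrosine kinase gene, 28.8 and 20.4. L3mbtl3, which encodes a methyl-lysine reader, had 27.8 and 20.7. Rabgap1l, Brwd1, Gkap1 and Heg1 completed the 10, with Ezh2 folds between 24.2 and 27.8 in replicate 1 and between 17.3 and 20.5 in replicate 2. Replicate 1 was the higher in each of these 10 but Bmi1.

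Among genes with Ezh2 alone whose strongest region lay outside the mark, Camk2n2 and Eef1akmt4 shared the region described above. Grk5, a G protein-coupled receptor kinase gene, had Ezh2 folds of 7.52 and 4.49, Sccpdh 6.93 and 4.13, Cobll1 6.18 and 4.71, and Apoo on the X chromosome 5.39 and 7.09. Grk5, Sccpdh, Cobll1 and Camk2n2 each had an H3K27me3 peak of replicate 1 and none of replicate 2 at an end, and Apoo and Eef1akmt4 had none of either. Among genes with the mark alone, Krtap9-3, a hair keratin-associated gene, had the highest mean H3K27me3 fold, with 4.68 and 3.83 in replicates 1 and 2. Pdgfb, a growth factor gene, followed with 3.63 and 3.88 in a marked region of 21487 bp, and Gm11938 with 4.20 and 3.30. Other keratin-associated genes of chromosome 11 were among the 10, Krtap9-1 with 4.16 and 3.27, Krtap3-2 with 3.63 and 3.77 and Krtap1-3 with 4.28 and 2.99. The 4 keratin-associated genes and Pdgfb each had an Ezh2 peak of replicate 1 and none of replicate 2.

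The promoters of the classes differed in CG content. Counted per promoter window of 250 bases, 1710 windows (8.04%) touched both, 299 (1.41%) Ezh2 alone, 3099 (14.6%) the mark alone and 16155 (76.0%) neither. The median number of CG was 20 with Ezh2 alone, 12 with both, 6 with the mark alone and 10 with neither. Windows with GC above 50% and an observed over expected CG ratio above 0.6 made up 67.2%, 45.0%, 25.3% and 43.4% in that order, against 41.2% of all. The mark accompanied Ezh2 at 90.1% of Ezh2 promoters with 0 to 4 CG and at 70.3% of those with 30 or more. Conversely, Ezh2 accompanied the mark at 22.8% of marked promoters with 0 to 4 CG and at 48.9% of those with 30 or more. The mark-alone median was between 5 and 6 with any 1 library left out. The gap between Ezh2 alone and both was less steady: with Ezh2 replicate 2 as the only Ezh2 list the medians were 13 and 11, and with a q of at most 0.01 in all lists they were 16 and 18. With that q in the Ezh2 lists only they were 24 and 16. Where a mark peak of either list counted as the mark they were 21 and 12. A Runx1 region touched 65.2% of the promoters with Ezh2 alone, 19.8% with both, 1.42% with the mark alone and 49.8% with neither. Runx1 and Ezh2 shared their fixation and input, and the part of these in the values was not tested.

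**Figure D5:**
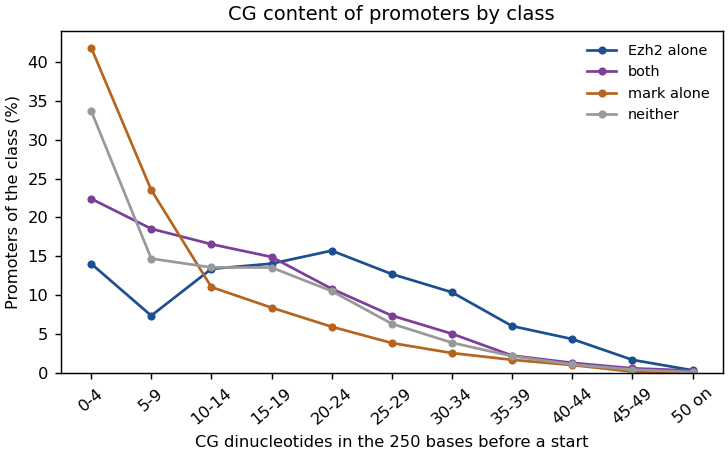
Percent of the promoters of each class against the number of CG dinucleotides in the 250 bases before a start. Promoters with the mark alone are most frequent at 0 to 4 CG, and those with Ezh2 alone at 20 to 24 CG, with medians of 6 and 20.

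In the lists as deposited, most Hox genes, which pattern the body axis, carried both Ezh2 and the mark. Of 39, 32 had both (82.1%), 5 the mark alone and 2 neither, against 14.9% of all genes with both. With a q of at most 0.01 in all 4 lists 17 had both, 6 Ezh2 alone and 16 neither, against 2.47% of all genes with both, and with the 10000 strongest peaks of each list 16 had both, against 3.34%. The 4 clusters differed in how fully they were covered. In the Hoxc cluster (115.7 kb on chromosome 15) the mark covered 97.2% of bases and Ezh2 90.6%, with 84.7% and 85.3% in the lists of Ezh2 replicates 1 and 2. In the Hoxb cluster (173.9 kb on chromosome 11) the values were 92.8% and 59.3%, with 57.4% and 54.3% in the single lists. In the Hoxa cluster (105.5 kb on chromosome 6) the mark covered 76.8% and Ezh2 18.3%, and in the Hoxd cluster (96.9 kb on chromosome 2) 44.4% and 15.5%. The widest Ezh2 region of all, 30618 bp, lay over Hoxc6, Hoxc8 and Hoxc9, with folds of 13.6 and 12.1 in a marked region of 69770 bp. Hoxa9 and Hoxa10, whose products act in blood progenitors, had both, with Ezh2 folds of 4.96 and 6.35 and of 7.11 and 6.88. Hoxa4, Hoxa7, Hoxa11, Hoxd1 and Hoxd8 had the mark alone, and Hoxa5 and Hoxd4 neither. Neither here means no shared region, as Hoxa5 and Hoxd4 each had an H3K27me3 peak of at least 1 list at an end.

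Of 89 other developmental transcription factor genes, 39 had both (43.8%), 28 the mark alone (31.5%), 1 Ezh2 alone and 21 neither (23.6%). Over all genes these shares were 14.9%, 16.7%, 1.67% and 66.5%. Of the 21 with neither, 5 had no peak in any of the 4 lists at an end. Tbx2, a limb and heart regulator, had Ezh2 folds of 15.3 and 9.12, and Eya1 had H3K27me3 folds of 6.06 and 6.00 beside Ezh2 folds of 6.86 and 6.01. Gata4, a heart and endoderm regulator, had Ezh2 folds of 5.46 and 5.08 in a marked region of 26002 bp. Zic2 and Pou3f2 had the mark alone, with H3K27me3 folds of 3.35 and 3.17 and of 3.08 and 2.70. Of 46 secreted signals, 22 had both (47.8%) and 17 the mark alone (37.0%). Wnt11 had Ezh2 folds of 13.7 and 13.9 and Fgf9 12.9 and 10.8, and of the hedgehog ligand genes Shh had both while Dhh and Ihh had the mark alone. Of 36 neuronal genes 15 had both (41.7%) and 11 the mark alone (30.6%), among them Syn1 with both and Grin2b with the mark alone. With 1 library left out, the counts with both ranged from 31 to 36 for Hox genes, from 39 to 52 for the transcription factors, from 21 to 32 for the signals and from 15 to 23 for neuronal genes. With a q of at most 0.01 in all 4 lists they were 17, 8, 5 and 3 in that order, and with the 10000 strongest peaks of each list 16, 12, 8 and 3.

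Genes of the blood system were divided. Of 37 stem and progenitor regulators 7 had both (18.9%), near the 14.9% of all genes, and 24 had neither (64.9%), near the 66.5% of all genes. Those with neither included Runx1, Tal1, Gata2, Lmo2, Kit and Cd34, and 20 of the 24 had no peak in any of the 4 lists at an end. The 7 with both included Mycn, with Ezh2 folds of 6.85 and 7.29, Bcl11a with 7.99 and 4.66 and Erg with 7.85 and 3.97. Meis1 had Ezh2 alone, with low folds of 1.61 and 1.83. Of 37 T lymphoid genes 13 had both (35.1%) and 6 the mark alone (16.2%, near the 16.7% of all genes). Those with both included the Notch pathway genes Hes1, with Ezh2 folds of 13.1 and 9.51, and Notch1, with 8.68 and 6.23, the transcription factor genes Tcf7, Lef1 and Gata3, and the recombinase genes Rag1 and Rag2. The T cell surface genes were spread over the classes, with Cd3e and Cd4 among those with both, Cd2, Cd3g and Cd8a among those with the mark alone and Cd3d, Cd5, Cd7 and Cd28 among those with neither. Of 24 B lymphoid genes 11 had both (45.8%), led by Bach2 with Ezh2 folds of 14.1 and 9.53 and Irf8 with 10.7 and 9.11, and Pax5 had the mark alone in a region of 26766 bp. Of 30 myeloid genes 6 had both (20.0%), 5 the mark alone (16.7%) and 18 neither (60.0%), near the shares of all genes. S100a9 had both and its partner S100a8 the mark alone, and of the granule protease genes Elane and Prtn3 had the mark alone and Ctsg neither. Cd14, a monocyte receptor gene, had Ezh2 folds of 8.16 and 7.47, and Klf4 7.90 and 6.32. Of 22 erythroid and megakaryocytic genes 5 had both (22.7%), led by Thbs1 with low Ezh2 folds of 3.14 and 3.31, and 14 had neither (63.6%, near the share of all genes), Gata1 and Klf1 among them. The counts with both ranged from 12 to 16 for T lymphoid and from 10 to 12 for B lymphoid genes with 1 library left out, and were 2 and 4 with a q of at most 0.01 in all 4 lists.

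Most genes of the Polycomb machinery had neither Ezh2 nor the mark, as did 66.5% of all genes. Of 12 PRC2 genes, the accessory subunit genes Phf19, Epop and Aebp2 had both, Ezh2 alone and the mark alone, in that order, and the other 9, with Ezh2, Eed and Suz12 among them, had neither and no peak in any list. Phf19 had Ezh2 folds of 7.41 and 6.34. Of 24 PRC1 genes 14 had neither (58.3%), 5 had both (20.8%), 2 the mark alone (8.33%) and 3 Ezh2 alone (12.5%), against 66.5%, 14.9%, 16.7% and 1.67% of all genes. The 3 with Ezh2 alone were Pcgf5 with folds of 3.64 and 2.78, Phc1 with 2.38 and 3.41 and Cbx2 with 2.61 and 1.70. They numbered between 3 and 4 with 1 library left out. Besides Bmi1, the PRC1 genes Bcorl1, Cbx8, Rybp and Scmh1 had both. Of 7 CDK inhibitor genes, some of them classical targets of the pathway, 2 had both, Cdkn2a and Cdkn2b, with Ezh2 folds of 2.90 and 2.37 and of 3.23 and 2.60, and Cdkn1c had the mark alone. Of 3 H3K27 demethylase genes Kdm6b had the mark alone. Of 75 ribosomal protein genes, active in all cells, 73 had neither.

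The X chromosome stood apart. It had 109 Ezh2 regions, 0.650 per Mb against 16.4 to 49.9 on the autosomes, and 606 marked regions, 3.62 per Mb against 39.6 to 63.7. Of its Ezh2 regions 67.9% touched the mark, against 84.7 to 93.2% on single autosomes, and 10.1% of its marked regions held Ezh2, against 19.8 to 34.0%. Runx1 regions were sparse as well, with 4.52 per Mb against 13.2 to 29.6. The Ezh2 regions that were found on X lay more often at gene ends, 36 of 74 in the mark and 12 of 35 outside, against 6.57% and 7.50% on the autosomes. They were also wider, with 609 against 484 bp in the mark and 465 against 376 bp outside. Their fold in the mark was 3.449 and 2.795 in replicates 1 and 2, against 2.706 and 2.58. Outside it was 3.018 and 2.365, against 2.498 and 2.386. The share of X near gene ends was not computed, and the part of width and strength was not tested. How many X chromosomes the line carries is not stated in the labels.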

How the data were processed

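The samples and groups are as the labels give them, and the inputs were not analysed here. Reads had been processed on mm10 with tools listed, without roles or parameters, in the submitters' processing notes (MACS2 2.0.10, Bowtie2 2.2.1, SAMtools and Picard). Each deposited list, 1 per replicate, gives the authors' fold enrichment, a linear ratio, and p-values and q-values as -log10. The deposited score was not used. Folds are the authors' values for single peaks. The weakest peak of each list has a p between 0.0493 and 0.0499.

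Regions, overlaps, distances and gene windows were computed with Python 3.11.15, NumPy 2.4.6 and pandas 2.3.3. Peaks that only touch end to end were not joined. The scripts were checked on simulated data, where 9 of 9 checks were recovered. Genes came from a RefSeq table of GRCm38.p6. Its promoter table gave strands and matched 17492 of 21887 protein-coding genes. All but 1 of 482 listed symbols matched.

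The members and the 14 lists were chosen with earlier results of these data known. Named genes are the 10 with the highest mean fold in each class and up to 3 per list and class, and named regions the first 10 by number, fold or width. Others named were chosen after their values were seen. Some genes and regions that the rule names are not reported here. Alternatives were stricter peaks, each replicate left out, other overlap rules, joined mark and wider windows. Those for CG content, gene starts and lists were added after seeing the data.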

Additional observations from a re-analysis of the deposited data

How the results depend on the processing

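Results on the Ezh2 and H3K27me3 lists were recomputed with other settings. Besides left-out replicates this gave 70 values, of which 30 stayed within the spread between single lists (for counts, within 1.5 times), 37 moved and 3 reversed. The cause was not tested. With a q of at most 0.01 in all 4 lists, which left 9089 Ezh2 and 1573 marked regions, 15.32% of Ezh2 regions lay in the mark and 48% of marked regions held Ezh2. The position was 0.2947, the spacing 2457 bp and the log2 fold difference 0.1685. Gene ends held 32.97% of Ezh2 regions in the mark, 13.56% of Ezh2-only and 13.94% of mark-only regions. Genes numbered 540 with both, 1154 with Ezh2 alone and 231 with the mark alone. The median difference in CG (Ezh2 alone minus both) turned to -2.0, and that in the percent at the start to -8.98. With that q in the Ezh2 lists only, 5.274% of marked regions held Ezh2, 27.27% of them at least 2, with a position of 0.2812 and a spacing of 2344 bp. Gene ends held 15.5% of Ezh2 regions in the mark and 36.55% of Ezh2-only, and 1530 genes had both and 160 Ezh2 alone. With the 10000 strongest peaks of each list these values were 43.92% in the mark, 32.61% with Ezh2, 27.09% with at least 2, position 0.2981, spacing 2969 bp, log2 difference 0.1554, gene ends 35.75%, 22.22% and 12.72%, 731 genes with both and 680 with the mark alone, and a difference at the start of -1.859. With marked regions within 3 kb joined, 53.6% held at least 2, at a spacing of 1904 bp. With gene ends of 5 kb, the shares were 22.17%, 19.28% and 12.22%, and 5457 genes had both.

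With each library left out in turn, the ranges were 74.77 to 93.77% of Ezh2 regions in the mark, 14.41 to 48.16% of marked regions with Ezh2, 30.05 to 47.86% of these with at least 2, 0.243 to 0.2547 for the position, 982 to 1375 bp for the spacing and 0.06642 to 0.1173 for the log2 fold difference. Gene ends held 5.287 to 6.829% of Ezh2 regions in the mark, 3.216 to 8.192% of Ezh2-only and 2.75 to 3.585% of mark-only regions. Genes numbered 3208 to 4786 with both, 210 to 1068 with Ezh2 alone and 2059 to 4972 with the mark alone. The CG difference ran from 2.0 to 9.0 and that at the start from -0.1296 to 11.65 percentage points.

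No paired analysis was possible because the results are overlaps and counts that come from no test, and the labels do not say whether equal replicate numbers of Ezh2 and H3K27me3 share a culture or day. Weak peaks make up most of each list, and the same q is not an equal strictness for narrow and broad peaks.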
